A study of Oryza sativa with 2 samples.

Results

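Cytosolic ribosomal proteins and the factors that work on the ribosome were examined in rice endosperm, the nutritive tissue of the seed, 2 days after pollination of the Japonica cultivar Zhonghua11. Members were the genes whose symbol or synonym in the rice gene table, in capitals, started with RPS or RPL and a digit, or with EF-1, EF1, EIF or eIF, or was RACK1A or RACK1B. This rule found 37 genes, 26 for ribosomal proteins and 11 for translation factors and RACK1 proteins, all in the nuclear genome and spread over 10 chromosomes. The rule went by name alone, and the gene table does not say in which compartment a protein works. RPL18 is also listed as CL18 and RPL27 as CL27, names of the same form as CL12 for the lower-case gene rpl12-2. Both may therefore encode proteins of an organelle ribosome, which was not tested. A single-gene probe set was listed for 32 of the 37 members, of 17905 genes read in all. The other 5 had none and were not analysed here.

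The cytosolic ribosome has a small subunit, which reads the messenger RNA, and a large subunit, which joins amino acids into protein. Initiation factors bring messenger RNA and the small subunit together, and elongation factors deliver the charged transfer RNAs. Early endosperm divides as free nuclei in a shared cytoplasm before walls form, and growing plant tissues are known for making many ribosomes.

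There were 2 samples in 1 group, with 1 Affymetrix rice array for each. The plants were untreated, carried no allele named in the labels, and grew in a phytotron at 28 °C during the 12 h of light and 22 °C during the 12 h of darkness. Endosperm was picked by hand under a dissecting microscope before cellularization. Whether separate plants gave the samples is not stated, and the spread between the arrays may therefore be technical. With no second tissue or stage, the values below are levels and array differences, without a test between groups.

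Signals are linear intensities as the authors deposited them, 1 per probe set and array, with a median over all probe sets of 42.1 on array 1 and 33.4 on array 2. Background was the 95th percentile of 64 probe sets against reporter or transgene sequences, 52.7 on array 1 and 37.9 on array 2. All 6 endosperm markers were above background on both arrays, from the transcription factor gene MADS6 at 69.1 and 56.9 to AGPS2 of starch synthesis at 19457 and 17686. MADS6 lay below the highest of the 64 reporter or transgene probe sets, 92.3 on array 1 and 98.7 on array 2. Of 3 seed coat and nucellus markers, with summed signals of 495.0 and 497.8, 2 were above background, while MADS13 was below it on array 1. All 3 green tissue markers were above background, with summed signals of 3117 and 3426, mostly from CAB2R at 2746.8 and 2999.5. The other probe set of CAB2R read 672.2 and 571.1. The meristem gene OSH1 stood at 1.16 and 11.7, below background. Of all 17905 genes read, 74.1% were above background on both arrays, so these counts do not by themselves mark a tissue. The part of other tissue in the levels below was not tested. In such a bulk sample, fewer cells of a type and less RNA per cell cannot be told apart.

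Transcripts of all 32 genes read were detected. Every gene was above background on both arrays, where 74.1% of all 17905 genes were, and all 48 single-gene probe sets of these genes were too, against 70.9% of 22436 such probe sets. Of the 32 genes, 27 had a signal on each array within its brightest 5% of genes, a place that 4.72% of all genes held and 7.68% of the 2460 genes with a symbol or synonym. That range began at 8204 on array 1 and at 8459 on array 2. Being in it depends on the probe set as well as on the transcript, so no order of transcripts is read from it.

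The ribosomal protein genes had a median log2 signal of 14.38 over 22 genes, and the translation factor and RACK1 genes one of 13.94 over 10, where all genes had a median of 8.58. The 22 include RPL18 and RPL27, which may not be cytosolic, and the 10 include EIF4A3B, known for a role other than initiation (below). The 32 genes made up 0.179% of the genes read and held 1.86% of the summed signal of all genes on array 1 and 1.89% on array 2. The 27 bright genes ran from 10162 to 29574 on array 1, with a median of 20831, and from 11127 to 29253 on array 2, with a median of 21956. The highest signals of any probe set were 34007 and 40177.

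**Figure D1:**
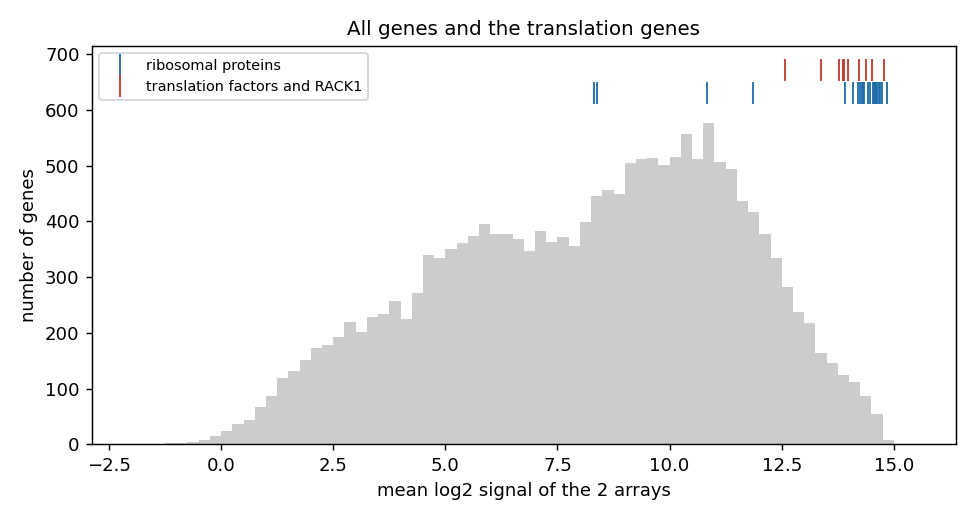
Number of genes by mean log2 signal of the 2 arrays in grey, with a tick for each of 22 ribosomal protein genes (blue) and 10 translation factor and RACK1 genes (red). The median of all genes is 8.58, and among the ticks only RPL10A and RPL27, in the probe sets read, lie below it.

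Of 10 small-subunit genes, 9 were among the brightest 5% of genes, and their group median was 14.33 (log2). RPS21, a small protein of this subunit, read 29574 on array 1 and 29253 on array 2, and pairs of signals below keep this order. RPS4 stood at 23538 and 25280. RPS7 stood at 20831 and 22907. These signals lay far above background on both arrays, by 395-fold for RPS7 on array 1.

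RPS27AA and RPS27AB encode a ubiquitin fused to a ribosomal protein, which is cut apart after translation. RPS27AA stood at 24394 and 25859, and RPS27AB, also listed as UBQ6, at 20567 and 20102. Both genes were bright, with array 2 the higher for the first and array 1 for the second. RPS3A, which the table also lists as CYC07, read 17182 and 17868. RPS26, whose protein sits where messenger RNA leaves the small subunit, read 18855 and 19739. RPS15, a protein near the decoding site, read 20607 and 19341. None of these small-subunit genes differed by more than 1.10-fold between the arrays, the ratio of RPS7.

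Both RPS10 genes were read, and they encode a protein of the head of the small subunit. RPS10-2 stood at 20203 and 21443. RPS10-1 stood at 1850 and 1789 and was the only small-subunit gene outside the brightest 5%. Each was read through 1 probe set, and probe sets differ in how strongly they bind, so no difference in transcript level between the copies is drawn from these signals.

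Of 12 large-subunit genes, 9 were among the brightest 5% of genes, and the group median was 14.49 (log2). The 12 include RPL18 and RPL27, which may not be cytosolic and were not among the 9. RPL5 and RPL11, whose proteins carry the 5S ribosomal RNA into the subunit, stood at 24981 and 26778 for RPL5 and at 24616 and 22603 for RPL11. RPL3, which lies near the peptidyl transferase centre, read 18855 and 18810. RPL30 read 22042 and 22982. RPL9 read 25172 and 27543 through a probe set of the _s_at type, which can bind several related transcripts. These genes were bright on both arrays, and RPL11 was the only one among them more than 1.05-fold higher on array 1.

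RPL7A-1 and RPL7A-2 encode copies of a protein found in eukaryotic and archaeal ribosomes. RPL7A-1 stood at 23295 and 25051, and RPL7A-2 at 23071 and 26464. Both copies were bright, and both were higher on array 2. RPL39 is among the smallest proteins of the large subunit, and 2 of its 3 genes were read. RPL39B stood at 25982 and 28366. RPL39C stood at 13766 and 17247, through an _s_at probe set as well. RPL39A lies close to RPL39B on chromosome 2, with 1 coding gene between them in the table, and had no single-gene probe set. Signal from near-identical copies may be shared, and this was not tested.

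The 3 large-subunit genes outside the brightest 5% were RPL18, RPL27 and RPL10A. RPL18, also listed as CL18, stood at 3562 and 3857. RPL27, also listed as CL27, stood at 308.6 and 364.3. RPL10A, whose protein forms the stalk beside the exit site for transfer RNA, read 392.8 and 257.7. Its other probe set, not used for the gene, read 18442 and 19364. All were above background, but in the probe sets read the mean log2 signals of RPL10A (8.31) and RPL27 (8.39) lay below the median of all genes.

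**Figure D2:**
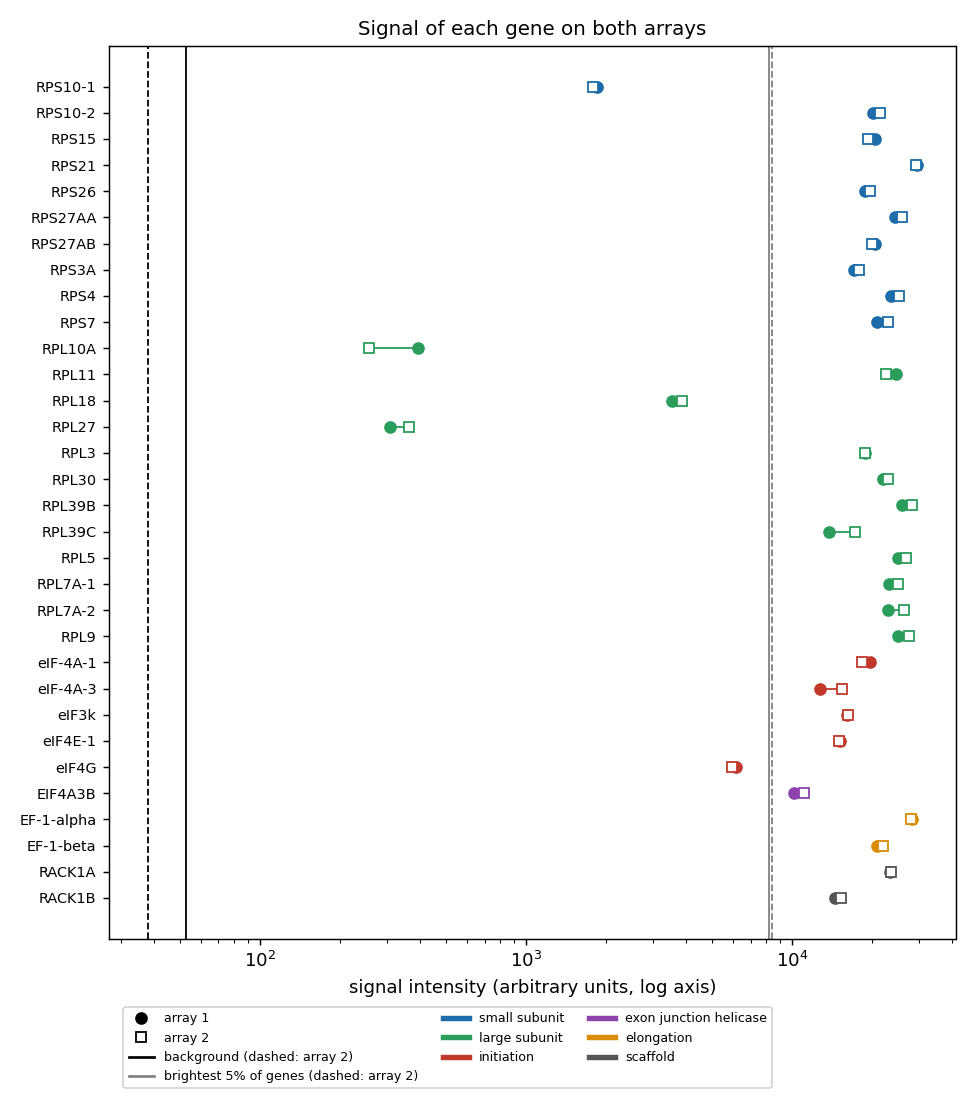
Signal of each gene on array 1 (filled circles) and array 2 (open squares) on a log axis, coloured by role, with background (black) and the entry to the brightest 5% of genes (grey) drawn for both arrays. All but RPS10-1, RPL10A, RPL18, RPL27 and eIF4G lie to the right of the grey lines on both arrays.

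Of 5 initiation factor genes, 4 were among the brightest 5%. eIF4E-1, which binds the cap at the start of a messenger RNA, stood at 15214 and 15081. eIF4G, the scaffold that holds cap-binding protein and helicase together, read 6196 and 5986, which placed it in the brightest 10% but not the brightest 5%. eIF3k, a subunit of the large complex eIF3 that binds the small subunit, read 16147 and 16243. The helicase eIF4A unwinds messenger RNA ahead of the small subunit. Its gene eIF-4A-1 stood at 19724 and 18393. The second gene, listed as eIF-4A-3 and also as eIF4A-2, stood at 12727 and 15459. The signals of eIF4E-1, eIF4G and eIF3k were nearly equal on the arrays, while eIF-4A-1 was the lower and eIF-4A-3 the higher on array 2.

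EIF4A3B bears an initiation factor name, but the protein is known as the helicase of the exon junction complex, which marks spliced messenger RNA. It stood at 10162 and 11127, the lowest signals of the 27 bright genes on both arrays. The neighbouring copy in name, EIF4A3A, was not read.

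Both elongation factor genes were bright. EF-1-alpha, which delivers charged transfer RNA to the ribosome, stood at 28370 and 28064. EF-1-beta, which recharges it with nucleotide, read 20858 and 21956. EF-1-alpha was read through an _x_at probe set, a type in which some probes bind other transcripts. In the gene table it lies next to LOC4331811, LOC4331812 and LOC4331813 on chromosome 3, and 4 further probe sets are listed for all of these 4 genes together. The signal of EF-1-alpha is therefore uncertain as that of a single gene.

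The arrays also carried control probe sets for the 3′ end, middle and 5′ end of a rice ef1a sequence. These read 27.3 and 29.3 at the 3′ end, 8.91 and 4.46 in the middle and 46.7 and 18.1 at the 5′ end, all below background. They thus stood apart from the 6 probe sets listed for the gene, of which the dimmest read 1794 and 1959. Which rice sequence the controls were made from is not given in the files, and the cause of this gap was not tested. The 4 control probe sets against ef1a of the rice blast fungus were below background too, with a highest signal of 27.3.

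RACK1 is a scaffold protein that sits on the head of the small subunit and binds signalling proteins. RACK1A stood at 23463 and 23552, and RACK1B at 14518 and 15364. Both genes were bright, and RACK1A differed by less than 1.01-fold between the arrays.

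Of the 32 genes, 9 had several single-gene probe sets, and in 6 these were over 4-fold apart. RPS21 spanned the widest range: its 3 probe sets read 29574 and 29253, then 12985 and 15803, and then 224.9 and 284.1. eIF-4A-1 came next, with 19724 and 18393, 10237 and 9856, and 305.0 and 181.3. RPL10A read 18442 and 19364 in its other probe set, against the 392.8 and 257.7 given above. The level of each of these genes therefore depends on the probe set chosen.

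RPS3A had 4 probe sets, with array 1 signals of 29170, 20004, 17182 and 617.2. eIF4G had 4 as well, at 6196, 1901, 597.4 and 399.7 on array 1. The 3 probe sets of RPL27 read 974.0, 308.6 and 133.0 on array 1. Of the 6 genes, RPL27 and eIF4G were therefore the ones with no probe set in the bright range, with highest mean log2 signals of 10.05 and 12.57. For EF-1-alpha, RPL39B and RPS4 the probe sets lay within 1.43-fold of each other.

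**Figure D3:**
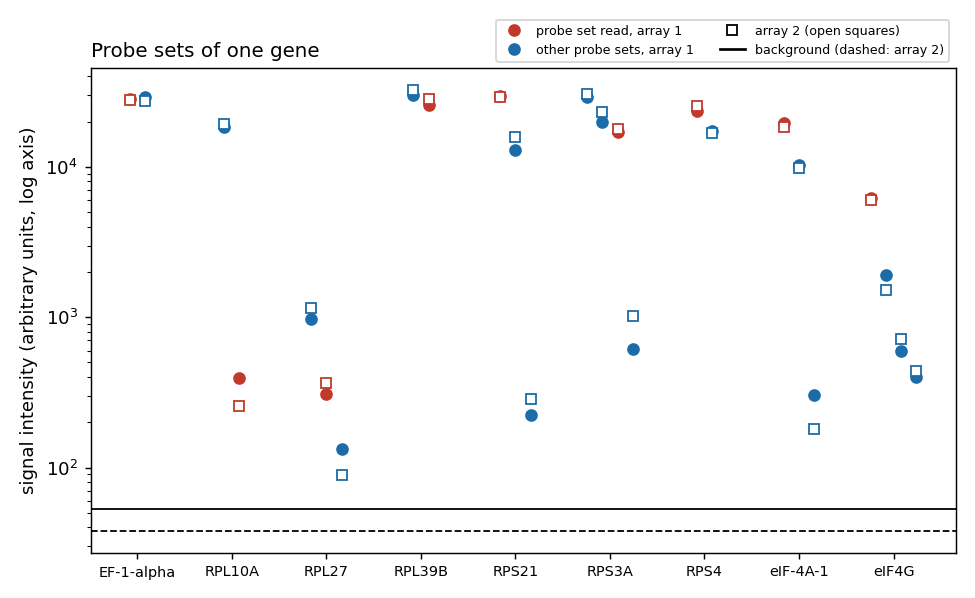
Signals of every single-gene probe set of the 9 genes that have several, on a log axis, with array 1 as filled circles and array 2 as open squares. The probe set read for the gene is red, the others are blue, and background is drawn as a solid line for array 1 and a dashed line for array 2. In RPL10A the probe set read is the dim one, whereas in RPS21 and eIF-4A-1 it is the brightest.

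None of the 32 genes differed by over 2-fold between the arrays, and neither did any of 818 other genes among the brightest 5%. The share was 0.844% of the 13263 genes above background, so a count of 0 among 32 genes is near the background. The SD between the arrays over the 32 genes was 0.11 on the log2 scale. Over the 27 bright genes alone it was 0.086, against 0.106 over the 818 other bright genes. For single genes the SD of the log2 signal (n = 2) ran from 0.00 for RPL3 to 0.43 for RPL10A. Array 2 was the higher in 21 genes and the lower in 11, with a median log2 difference, array 2 minus array 1, of 0.07. Of the 27 bright genes, 19 were higher on array 2 (70.4%), against 69.8% of the 818 other bright genes, whose median difference was also 0.07. The lean of the bright translation genes towards array 2 was thus near that of other bright genes. After quantile normalization 16 genes were higher and 16 lower on array 2, with a median difference of 0.00, and 49.4% of the other bright genes were higher.

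By role, the median log2 difference was 0.06 for 10 small-subunit genes, 0.11 for 12 large-subunit genes and -0.01 for 5 initiation factor genes. It was 0.03 for the pair of elongation factor genes, 0.04 for the pair of RACK1 genes and 0.13 for EIF4A3B alone. Array 2 was higher in 6 small-subunit, 9 large-subunit and 2 initiation factor genes. These are counts over genes of 2 arrays, and the difference between roles was not tested.

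A few genes lay further apart. RPL39C had a log2 difference of 0.33, and 23 of the 818 other bright genes (2.81%) were at least as far apart in either direction. The difference was 0.28 for eIF-4A-3, reached by 5.75% of those genes, and 0.20 for RPL7A-2, reached by 15.9%. RPL10A had the widest gap, -0.61, in its dim probe set, but 0.07 in its bright one. RPL27 had a difference of 0.24, and its other probe sets gave 0.25 and -0.59. All 4 probe sets of RPS3A were higher on array 2, by 0.06 to 0.72, and all 3 of eIF-4A-1 were lower, by -0.05 to -0.75. In both genes the dimmest probe set gave the widest gap.

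**Figure D4:**
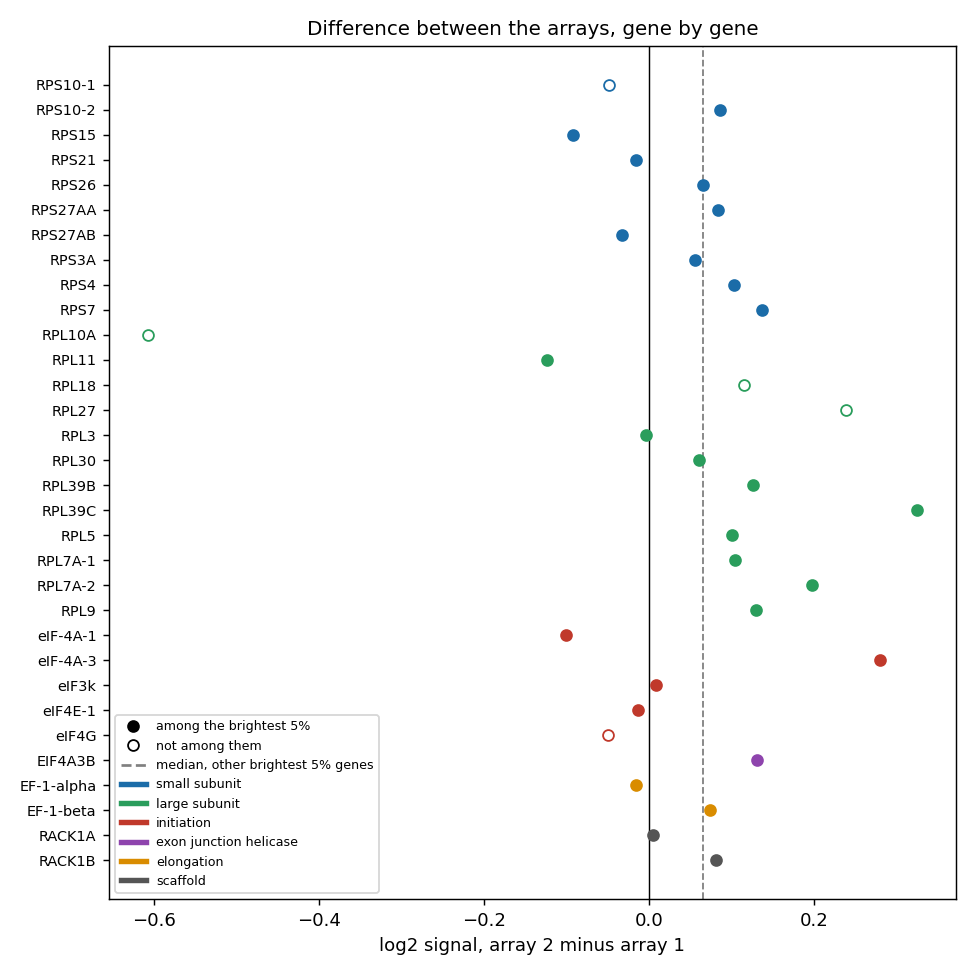
Log2 difference in signal, array 2 minus array 1, for each of the 32 genes, coloured by role, with filled points for genes among the brightest 5% and open points for the others. The dashed line is the median of the 818 other bright genes (0.07). RPL10A at -0.61 and RPL39C at 0.33 are the outermost points.

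Other genes of protein synthesis were read from lists of symbols. Of 44 ribosomal protein genes written in lower case, 13 are mitochondrial and 26 plastid genes, for which no single-gene probe set was listed, and 5 are nuclear. Of these 5, 3 were read and 2 of them were above background. The gene listed as rps14 stood at 2883 and 3205, and in its other probe sets at 4572 and 5829, 4340 and 4196, and 222.1 and 234.9. It is also listed as SDH2-1, so its signal is not that of a ribosomal protein alone. rpl5 on chromosome 3 stood at 1000.4 and 1057. rps20 on chromosome 6 read 31.4 and 47.7 by the same choice of probe set, below background on array 1, but 20815 and 21772 in its brightest probe set. It was left out of the members by its lower-case name. The table does not say in which compartment its protein works, nor does it for the members, RPL18 and RPL27 included.

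All 3 transfer RNA synthetase genes read were above background. LysRS, which charges the transfer RNA for lysine, stood at 11435 and 11038 and was among the brightest 5%. HisRS stood at 7027 and 7075, and MetRS at 7347 and 7361. The other genes read were also above background on both arrays. RRP46, a subunit of the exosome that processes ribosomal RNA, read 2707 and 2466, and EF-Gmt, an elongation factor of mitochondria, read 6316 and 6035. PAB1, taken by its symbol alone, stood at 6088 and 6262, while its other probe sets read 6075 and 6558, and 164.8 and 138.5. TCTP, a protein placed in the TOR growth pathway, read 130.5 and 214.7, while its other probe sets read 26227 and 28107, and 26963 and 28675. The kinase gene TOR itself had no single-gene probe set and was not analysed here.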

How the data were processed

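RNA of 2 endosperm samples (1 group) was labelled with a 3′ in vitro transcription kit and hybridized to 1 array each, per the labels' protocols. The deposited values are linear signal intensities, which the authors made with MAS5 per the submitters' processing notes, without a version or settings in these notes. The number of arrays limits the precision.

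No further scaling was applied before log2 was taken. Values were given for 57381 probe sets. Of these, 22436 were rice probe sets that the platform's probe annotation listed with 1 gene, present in the gene table. Names came from the gene table of assembly ASM3414082v1, joined by Entrez identifier. Where a gene had several such probe sets, the first by suffix (_at, _a_at, _s_at, _x_at) and then by highest mean signal was read. Brightest means above the 95th percentile of genes on both arrays.

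Every member could be named; of other lists, up to 3 genes were. Members and lists were chosen with earlier results of these data known. The pattern for transfer RNA synthetases was narrowed to names of amino acids, and FIB, ERS1, ERS2, SRS3, RDRS1 and RS2 were left out, since these names also belong to other genes. NF-YB1 and SSIIa were matched as nf-yb1 and SSS2A. The steps were tested on simulated data. Alternatives covered probe set choice, scaling, offset, background, the bright range and each array alone. Computations ran in Python 3.11.15 (pandas 2.3.3, NumPy 2.4.6), and plots in matplotlib 3.10.9.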

Additional observations from a re-analysis of the deposited data

Results flagged for a closer look

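Signal also appeared in probe sets that the gene values did not use. The 4 probe sets listed for EF-1-alpha together with 3 neighbouring genes were above background on both arrays, with a lower signal of the 2 arrays of 33049, 29185, 29139 and 1794. The 5 control probe sets for rice ribosomal RNA were above background too. For them the lower signal was 26272 and 19809 for the pair against the small-subunit RNA (18S), 8374 and 13924 for the pair against the long RNA of the large subunit and 258.6 for the 5.8S RNA. Groups of 2 samples were too small to be searched for outlying samples.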

How the results depend on the processing

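Of 47 comparisons of a group's value with an alternative on both arrays, 44 stayed within the spread between the arrays or, for counts, within 1.5 times. The 3 that moved were medians. For counts the rule says little, since 18 of 22 and 9 of 10 bright genes could not rise past 1.5 times. The count of genes over 2-fold apart was 0 at each setting. With probe sets averaged, the median log2 signal was 14.31 for ribosomal proteins and 13.88 for translation factors, and with plain _at probe sets alone it was 13.89 for translation factors over 9 genes, fewer genes being read. On single arrays the medians ran from 14.34 to 14.43 and from 13.94 to 13.95. Of 22 ribosomal protein genes 17 to 19 were among the brightest 5%, and of 10 others 8 or 9. With plain _at probe sets alone these counts were 16 of 19 and 8 of 9, and in the brightest 10% they were 18 and 10. The median difference ran from 0.00 after quantile normalization to 0.07. RPL10A had a mean log2 signal of 8.31, and of 14.21 in its brightest probe set. No paired analysis was possible because there was 1 group. In the probe sets read, the signals of the 32 genes were at least 5.85 times background, while MADS6, rps20, OSH1 and MADS13 lay near or below it. Another probe set of RPL27 read 133.0 and 88.6, on array 2 below the highest reporter or transgene probe set (98.7). With 2 arrays the spread is poorly known.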
